A study of Homo sapiens with 8 samples.

Results

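The genes of sterol synthesis, sterol uptake and transport, and their control were followed in MDA-MB-231, a widely used human cell line derived from a triple-negative breast tumour. The set was chosen by symbol and held 33 genes of the 60646 in the deposited count table, and all 33 were high enough to be tested. The 2 groups were 4 samples labelled DOT1L knockout (DOT1L/+ KO), made with a guide RNA against the first exon of DOT1L, and 4 samples with the wild-type DOT1L allele. Cells of both groups grew in DMEM with fetal bovine serum, were plated below confluency and were collected the next day, and their total RNA was sequenced after removal of ribosomal RNA. DOT1L is the enzyme that methylates histone H3 within its core, and the title of the series names MYC and Mondo, transcription factors that bind E-boxes. The number of edited alleles is not labelled, nor the knockout cells were 1 clone or whether each sample was its own culture, so p-values measure only the spread between these samples.

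Cholesterol is built from acetyl-CoA through mevalonate, isoprenoid units, squalene and lanosterol, and the last steps remodel lanosterol into cholesterol in the membrane of the endoplasmic reticulum. The SREBP transcription factors, encoded by SREBF1 and SREBF2, switch this pathway on: SCAP escorts them to the Golgi for cleavage when sterols are scarce, and the INSIG proteins hold SCAP back when sterols are plentiful. The liver X receptors (LXR), encoded by NR1H2 and NR1H3, work the other way round, since they are activated by oxysterols and raise genes of cholesterol efflux and of receptor breakdown, as well as SREBF1.

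Totals ran from 46713622 to 49308625 counts in the knockout and from 40103408 to 50031412 in wild-type, and levels are given as CPM, the counts scaled to the depth of each library with trimmed-mean factors. DOT1L itself averaged 84.7 ± 5.91 CPM in the knockout and 109 ± 8.52 CPM in wild-type (SD, n = 4 each), a log2 change of -0.37 (adjusted p = 2.83e-05 by edgeR's quasi-likelihood test). Of the line's markers, VIM, CD44, AXL and CAV1 stood between 495 and 3872 CPM on average in both groups, whereas ESR1, PGR and CDH1 stayed below 1 CPM and EPCAM at 6.74 CPM in the knockout and 6.62 CPM in wild-type. Markers of leukocytes, endothelium and hepatocytes (PTPRC, PECAM1, CDH5 and ALB) were all below 1 CPM. A gene was called higher or lower when edgeR's quasi-likelihood test gave an adjusted p below 0.05 over all 19877 genes tested.

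Promoter sequences of RefSeq (GRCh38.p14) were matched for 29 of the 33 genes. The 250 bases before the start are shown for the 2 regulators SREBF2 and INSIG1 and for 3 enzymes whose levels fell, HMGCS1, MSMO1 and DHCR7, because the promoters of this pathway are known to be read by SREBP together with the CCAAT-binding factor NF-Y. Capitals mark a sterol regulatory element (TCACNCCAC), its core (CACCCCAC, which overlaps it), an E-box (CACGTG) or a CCAAT box (CCAAT), each searched on both strands, so that a CCAAT box on the opposite strand reads ATTGG.
SREBF2, chr22:41832855-41833104, plus strand: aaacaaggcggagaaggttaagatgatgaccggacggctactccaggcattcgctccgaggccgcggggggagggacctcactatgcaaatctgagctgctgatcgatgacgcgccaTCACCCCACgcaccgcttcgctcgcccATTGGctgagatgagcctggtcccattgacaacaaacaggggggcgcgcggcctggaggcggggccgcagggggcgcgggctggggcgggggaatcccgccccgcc
INSIG1, chr7:155297628-155297877, plus strand: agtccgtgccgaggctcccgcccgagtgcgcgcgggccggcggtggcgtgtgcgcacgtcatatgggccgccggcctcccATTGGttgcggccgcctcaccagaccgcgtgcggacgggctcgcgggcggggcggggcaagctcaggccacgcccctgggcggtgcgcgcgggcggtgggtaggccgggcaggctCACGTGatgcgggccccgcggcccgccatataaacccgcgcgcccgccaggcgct
HMGCS1, chr5:43313413-43313662, minus strand: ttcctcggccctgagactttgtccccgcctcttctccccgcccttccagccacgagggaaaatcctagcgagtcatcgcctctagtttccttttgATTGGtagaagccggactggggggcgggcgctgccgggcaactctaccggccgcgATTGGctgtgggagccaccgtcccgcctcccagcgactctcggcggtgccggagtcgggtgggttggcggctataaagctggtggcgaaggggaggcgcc
MSMO1, chr4:165327419-165327668, plus strand: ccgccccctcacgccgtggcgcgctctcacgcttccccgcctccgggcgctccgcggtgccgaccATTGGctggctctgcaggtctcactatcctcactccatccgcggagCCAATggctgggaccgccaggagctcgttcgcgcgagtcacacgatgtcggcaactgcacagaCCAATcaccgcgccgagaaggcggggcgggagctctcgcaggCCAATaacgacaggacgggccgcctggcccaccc
DHCR7, chr11:71448394-71448643, minus strand: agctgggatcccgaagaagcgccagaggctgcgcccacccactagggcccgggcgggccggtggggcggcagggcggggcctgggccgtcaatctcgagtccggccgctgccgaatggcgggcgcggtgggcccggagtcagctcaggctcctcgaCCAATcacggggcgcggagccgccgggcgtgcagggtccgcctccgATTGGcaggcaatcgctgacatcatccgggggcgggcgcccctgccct
HMGCS1 and DHCR7 have 2 RefSeq windows each, of which 1 is shown, picked because it held more of these motifs. The window not shown held none of them for either gene. The SREBF2 stretch held a sterol regulatory element that began 133 bases before the start and a CCAAT box 106 bases before it. A CCAAT box was found in 56.4% of the 39 windows of these genes, which reach from 250 bases before to 50 bases after a start, against 34.6% of all 35116 promoter windows. MSMO1 held 4 such boxes, and MVK and NSDHL held 5 each. An exact sterol regulatory element was found in 2.56% of the genes' windows, that of SREBF2 alone, against 1.13% of all windows. Its core alone was found in 5.13% and 2.79%, and an E-box, a kind of motif that MYC and Mondo factors among others bind, in 15.4% and 7.26%. The genes with an E-box were INSIG1, SCAP, LSS, SC5D and ABCA1, 5 of the 29 matched. The 2 windows of SC5D overlap and hold the same E-box and the same CCAAT box, which the shares count in both windows. The E-box of LSS lay after the start. A match of letters does not show that a factor binds there.

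Most of the pathway was lower in the knockout. Of 33 genes, 22 fell, 3 rose and 8 did not pass, beside 23.6% of all tested genes called lower, 23.9% called higher and 47.6% called in either direction. This fit did not use the replicate numbers. With them as a block 25 fell and 3 rose, beside 26.1% lower, 26.6% higher and 52.7% called. The median log2 change of the 33 genes was -0.25, beside 0.00 over all tested genes. All 4 knockout samples lay below all 4 wild-type samples for 18 genes and above them for SC5D alone, beside 22.1% and 21.3% of all tested genes and 43.4% in either direction. The falls were unequal: 5 genes, SREBF1, INSIG1, MSMO1, DHCR7 and NR1H3, had a log2 change of -1 or less, and most of the other genes that fell had log2 changes between -0.34 (LBR) and -0.18 (FDPS).

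**Figure D1:**
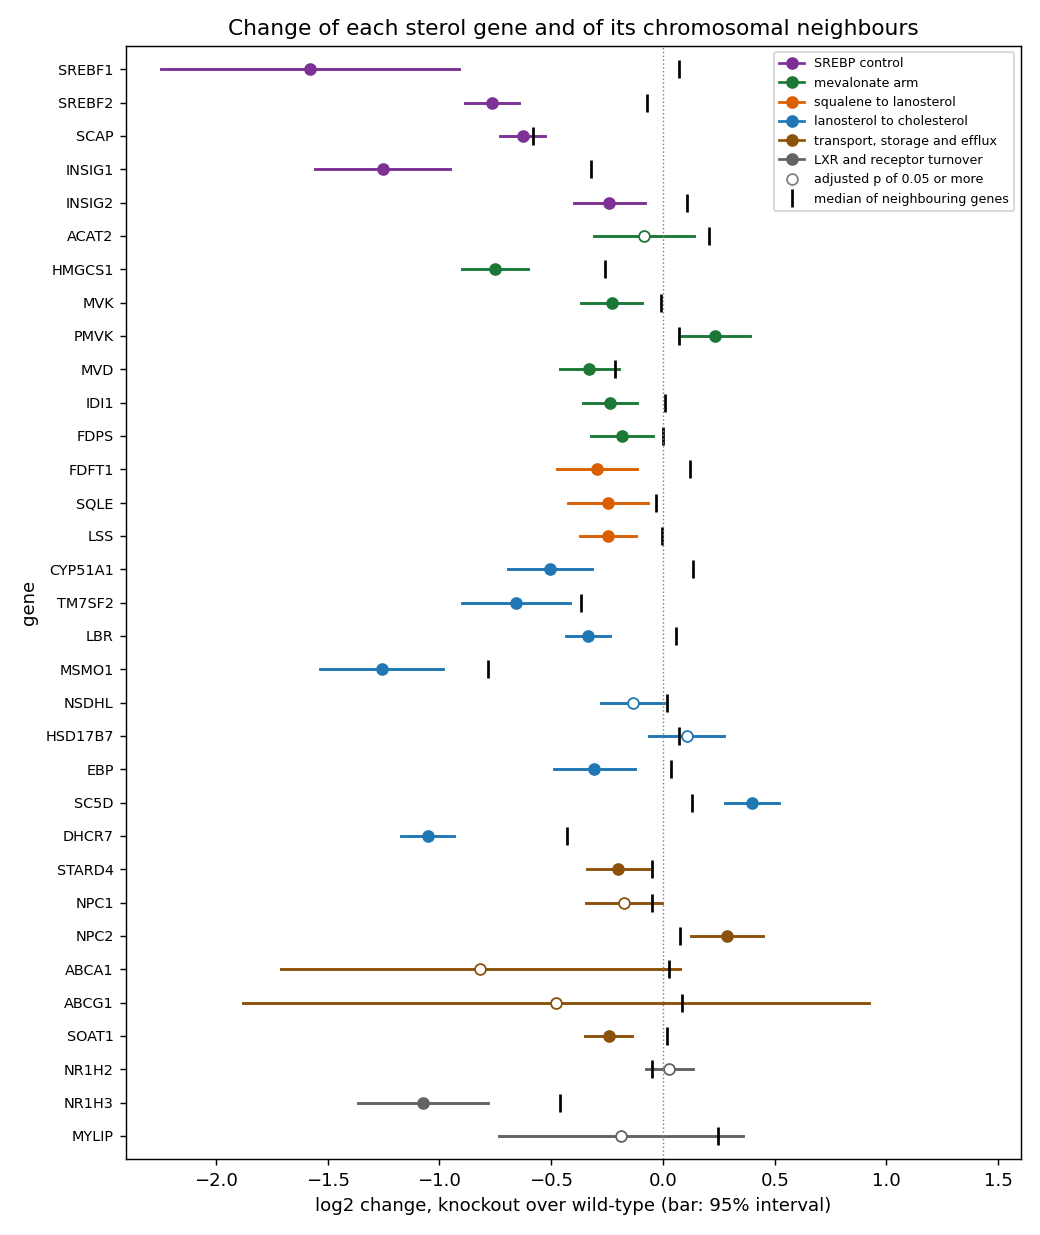
Log2 change of each of the 33 genes (x axis, knockout over wild-type) with its 95% interval, in order of role down the page; filled circles passed the test, and black ticks give the median change of the 25 tested genes on either side on the chromosome. SREBF1, INSIG1, MSMO1, DHCR7 and NR1H3 lie farthest to the left, and the ticks of SCAP and MSMO1 lie at -0.58 and -0.78.

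All 5 genes of SREBP control fell. Per-sample values below run in the order of replicates 1, 2, 3 and 5. SREBF1 (ENSG00000072310, chromosome 17, 17810399 to 17837002, minus strand), whose products favour fatty acid genes, stood at 28.6, 27.2, 24.1 and 35.0 CPM in the knockout, against 94.2, 94.6, 48.0 and 107 CPM in wild-type. Wild-type replicate 3 was far below the other wild-type samples and still above every knockout sample. The log2 change was -1.58 (SE 0.27, adjusted p = 0.00335), and -1.77 (adjusted p = 8.62e-06) without wild-type replicate 3. SREBF2 (ENSG00000198911, chromosome 22, 41833079 to 41907308, plus strand), the main driver of sterol genes, had 99.99, 99.4, 99.1 and 81.7 CPM in the knockout, against 168, 162, 159 and 156 CPM in wild-type. Its groups were far apart, with a log2 change of -0.76 (SE 0.06, adjusted p = 7.76e-10).

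INSIG1, itself a well-known SREBP target, and its paralog INSIG2 both fell, by unlike amounts whose difference the adjusted test could not decide. INSIG1 (ENSG00000186480, chromosome 7, 155297776 to 155310235, plus strand) had 28.0, 29.2, 28.6 and 21.7 CPM in the knockout, against 63.0, 73.8, 51.8 and 67.9 CPM in wild-type, a log2 change of -1.25 (SE 0.13, adjusted p = 6.80e-05). INSIG2 had 14.98, 17.3, 16.7 and 16.5 CPM in the knockout, against 17.6, 22.5, 18.0 and 19.3 CPM in wild-type. Its groups did not overlap but came close, with a log2 change of -0.24 (adjusted p = 0.0134), but it missed the threshold when knockout replicate 1 (adjusted p = 0.0501) or wild-type replicate 2 (0.0751) was left out and with library totals (0.0841) or upper-quartile scaling (0.0712). The log2 ratio of INSIG1 to INSIG2 within a sample, which does not depend on the scaling, averaged 0.71 ± 0.22 in the knockout and 1.72 ± 0.14 in wild-type (SD, n = 4 each). All 4 knockout ratios lay below all 4 wild-type ratios. The exact two-sided permutation p was 0.0286, the smallest that 70 splits allow, or 0.0857 after adjustment over the 6 ratios tested. Adjustment keeps this smallest p above 0.05 unless several of the 6 ratios reach it. The adjusted value therefore cannot decide whether the 2 falls differed.

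SCAP, the sterol-sensing escort, had 82.5, 78.4, 80.9 and 86.7 CPM in the knockout, against 121, 122, 134 and 131 CPM in wild-type (log2 change -0.63, SE 0.05, adjusted p = 7.57e-10). Its neighbours on chromosome 3 were lower as well, with a median log2 change of -0.58, and relative to them SCAP stood at -0.05 (adjusted p = 0.461). The neighbours of SREBF1 and SREBF2 had medians of 0.07 and -0.07. For INSIG1 the neighbours' median was -0.32, and its change relative to them was -0.93 (adjusted p = 0.000509). The log2 ratio of SREBF1 to SREBF2 averaged -1.73 ± 0.36 in the knockout and -0.97 ± 0.52 in wild-type, and this difference did not pass (exact permutation p = 0.0571, adjusted 0.0857, n = 4 each).

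**Figure D2:**
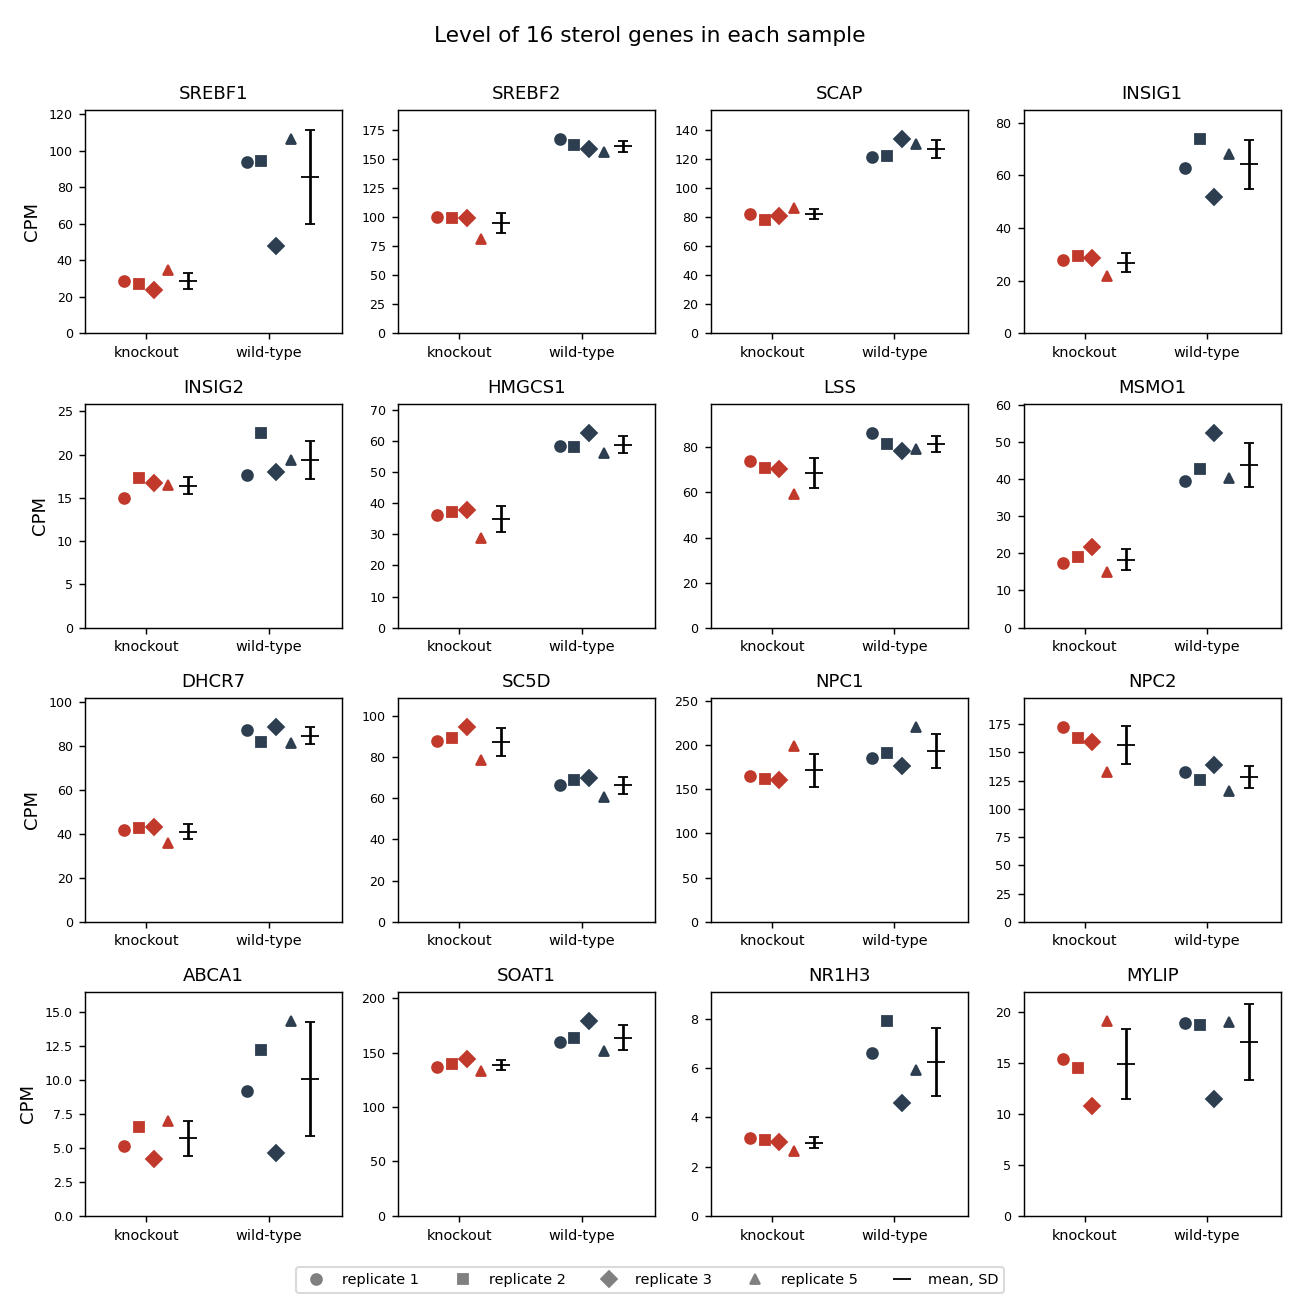
Level in CPM (y axis, from 0) of 16 of the genes in each sample, knockout left of wild-type, with the mean and SD of each group in black; symbols give the replicate number. SREBF2, SCAP, HMGCS1 and DHCR7 show groups far apart, SC5D is higher in the knockout, and wild-type replicate 3 is low for SREBF1, ABCA1 and MYLIP.

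In the mevalonate arm, which makes the isoprenoid units, 5 of 7 genes fell, 1 rose and 1 did not pass. HMGCS1, which condenses acetyl-CoA units ahead of the mevalonate-forming step, changed most. HMGCS1 (ENSG00000112972, chromosome 5, 43289395 to 43313512, minus strand) had 36.1, 37.1, 37.7 and 28.97 CPM in the knockout, against 58.4, 58.2, 62.6 and 56.2 CPM in wild-type. The log2 change was -0.75 (SE 0.07, adjusted p = 7.35e-08), and -0.49 relative to its neighbours (adjusted p = 1.68e-05). MVD, the decarboxylase that ends the mevalonate steps, had 31.3, 29.1, 28.0 and 24.9 CPM in the knockout, against 38.0, 35.1, 34.5 and 34.8 CPM in wild-type (log2 change -0.33, adjusted p = 0.000199). Relative to its neighbours, whose median was -0.21, MVD stood at -0.12 (adjusted p = 0.151).

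The kinase MVK and the isomerase IDI1 fell by 0.23 each on the log2 scale (adjusted p = 0.00690 and 0.00201), with groups that did not overlap. With library totals the MVK call was lost (adjusted p = 0.0570). FDPS, which joins the units into farnesyl diphosphate, averaged 98.5 ± 8.13 CPM in the knockout and 112 ± 9.71 CPM in wild-type (SD, n = 4 each), and its groups overlapped. Its log2 change of -0.18 passed narrowly (adjusted p = 0.0318). It missed the threshold when knockout replicate 3 (adjusted p = 0.0559) or 5 (0.0915) or wild-type replicate 1 (0.0832) or 3 (0.113) was left out, and with library totals (0.129) or upper-quartile scaling (0.146). PMVK, the kinase after MVK, went the other way and rose to 13.5 ± 0.936 CPM in the knockout, against 11.5 ± 0.817 CPM in wild-type (log2 change 0.23, adjusted p = 0.0165). PMVK no longer passed when knockout replicate 1 (adjusted p = 0.0546) or 2 (0.0503) or wild-type replicate 2 (0.0571) was left out, or relative to its neighbours (log2 change 0.16, adjusted p = 0.0948). The thiolase ACAT2 stood at 135 ± 15.6 CPM in the knockout and 143 ± 16.1 CPM in wild-type (log2 change -0.08, 95% interval -0.31 to 0.14, adjusted p = 0.525). Relative to its neighbours, whose median was 0.20, the log2 change of ACAT2 was -0.29 (adjusted p = 0.0380).

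All 3 enzymes between farnesyl diphosphate and lanosterol fell by similar amounts. FDFT1, squalene synthase, had 49.1, 49.0, 47.8 and 36.8 CPM in the knockout, against 57.4, 55.2, 59.9 and 51.7 CPM in wild-type (log2 change -0.30, SE 0.08, adjusted p = 0.00973). LSS, which closes the rings to lanosterol, had 74.2, 70.8, 70.2 and 59.1 CPM in the knockout, against 86.4, 81.4, 78.3 and 79.3 CPM in wild-type (log2 change -0.25, SE 0.06, adjusted p = 0.00197). For both genes the groups were separate, and knockout replicate 5 was the lowest sample. SQLE, the oxygen-requiring epoxidase that is a control point of the pathway, averaged 28.5 ± 3.57 CPM in the knockout and 33.7 ± 3.01 CPM in wild-type, with overlapping groups (log2 change -0.24, adjusted p = 0.0261). SQLE missed the threshold when knockout replicate 1 (adjusted p = 0.0786) or 5 (0.0547) or wild-type replicate 3 (0.0812) was left out, with library totals (0.0695) or upper-quartile scaling (0.0867), and relative to its neighbours (0.0537).

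Among the 9 genes from lanosterol to cholesterol, 6 fell, 1 rose and 2 did not pass, and this stretch held the largest falls of any enzyme of the set. MSMO1 (ENSG00000052802, chromosome 4, 165327623 to 165343160, plus strand), which oxidises the methyl groups of lanosterol's ring, had 17.4, 19.1, 21.7 and 15.1 CPM in the knockout, against 39.6, 42.7, 52.4 and 40.4 CPM in wild-type. Every knockout sample was below every wild-type sample by a wide margin (log2 change -1.26, SE 0.12, adjusted p = 1.47e-05). Its neighbours were also lower, with a median of -0.78, and relative to them MSMO1 stood at -0.48 (adjusted p = 0.00989). DHCR7 (ENSG00000172893, chromosome 11, 71428193 to 71452868, minus strand), a reductase that makes cholesterol in the last step of one route, had 41.9, 42.7, 43.1 and 35.8 CPM in the knockout, against 87.4, 81.6, 88.6 and 81.4 CPM in wild-type. Its log2 change was -1.05 (SE 0.06, adjusted p = 3.48e-12), the neighbours' median was -0.43, and the relative change was -0.62 (adjusted p = 1.68e-08).

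SC5D, the desaturase that acts just before DHCR7, was the 1 enzyme that rose with groups apart. It had 87.7, 89.2, 94.6 and 78.5 CPM in the knockout, against 66.4, 68.9, 69.8 and 60.5 CPM in wild-type (log2 change 0.40, SE 0.06, adjusted p = 7.44e-06). Relative to its neighbours, with a median of 0.13, the log2 change was 0.27 (adjusted p = 0.000673). The enzymes on either side of the same intermediate thus differed in direction, with ratios of knockout to wild-type of 1.32 for SC5D and 0.482 for DHCR7.

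TM7SF2 and LBR can both carry out the same sterol reductase step, and LBR is at the same time a receptor for the nuclear lamina. TM7SF2 had 4.35, 4.40, 4.28 and 3.39 CPM in the knockout, against 7.03, 6.99, 5.22 and 6.69 CPM in wild-type (log2 change -0.66, adjusted p = 7.92e-05). LBR had 153, 170, 162 and 164 CPM in the knockout, against 208, 213, 196 and 201 CPM in wild-type (log2 change -0.34, adjusted p = 4.17e-06). Both genes fell, and the neighbours of TM7SF2 had a median of -0.37, so that its relative change was -0.29 (adjusted p = 0.0483). The log2 ratio of TM7SF2 to LBR averaged -5.31 ± 0.20 in the knockout and -4.99 ± 0.16 in wild-type (exact permutation p = 0.0571, adjusted 0.0857, n = 4 each).

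CYP51A1, the demethylase of lanosterol, averaged 5.62 ± 0.418 CPM in the knockout and 7.98 ± 0.410 CPM in wild-type (log2 change -0.50, adjusted p = 8.74e-05). Its level is uncertain: its pseudogene CYP51A1P2 held 89.1% and CYP51A1P1 60.8% as many counts as CYP51A1 itself, and in GENCODE 29 another gene on the same strand overlaps 79.4% of its exon bases. The isomerase EBP also fell, with overlapping groups (log2 change -0.31, adjusted p = 0.00584). NSDHL, which works with MSMO1, stood at 17.3 ± 0.727 CPM in the knockout and 19.0 ± 1.43 CPM in wild-type, a log2 change of -0.14 (95% interval -0.27 to 0.0029, adjusted p = 0.101), and passed without wild-type replicate 1 (adjusted p = 0.0372). HSD17B7, a ketoreductase of the same steps, had a log2 change of 0.11 (95% interval -0.06 to 0.27, adjusted p = 0.295), with a pseudogene, HSD17B7P2, at 6.91% of its counts.

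Summed over the 19 enzymes of synthesis, the level was 879 ± 63.5 CPM in the knockout and 1069 ± 46.2 CPM in wild-type (SD, n = 4 each). The knockout sums were 911, 914, 909 and 784 CPM, against 1088, 1064, 1117 and 1008 CPM in wild-type, so that every knockout sum was below every wild-type sum and replicate 5 was the lowest of each group. Per kilobase of exon (RPKM), the best expressed enzymes were ACAT2 with 31.3 in the knockout and 33.2 in wild-type, LBR with 30.8 in the knockout and 38.9 in wild-type, and FDPS with 26.5 in the knockout and 30.1 in wild-type. The lowest was TM7SF2 with 1.20 RPKM in the knockout and 1.90 RPKM in wild-type. The 3 enzymes that fell most, HMGCS1, MSMO1 and DHCR7, lay between 6.34 and 9.83 RPKM in the knockout and between 12.5 and 20.4 RPKM in wild-type.

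**Figure D3:**
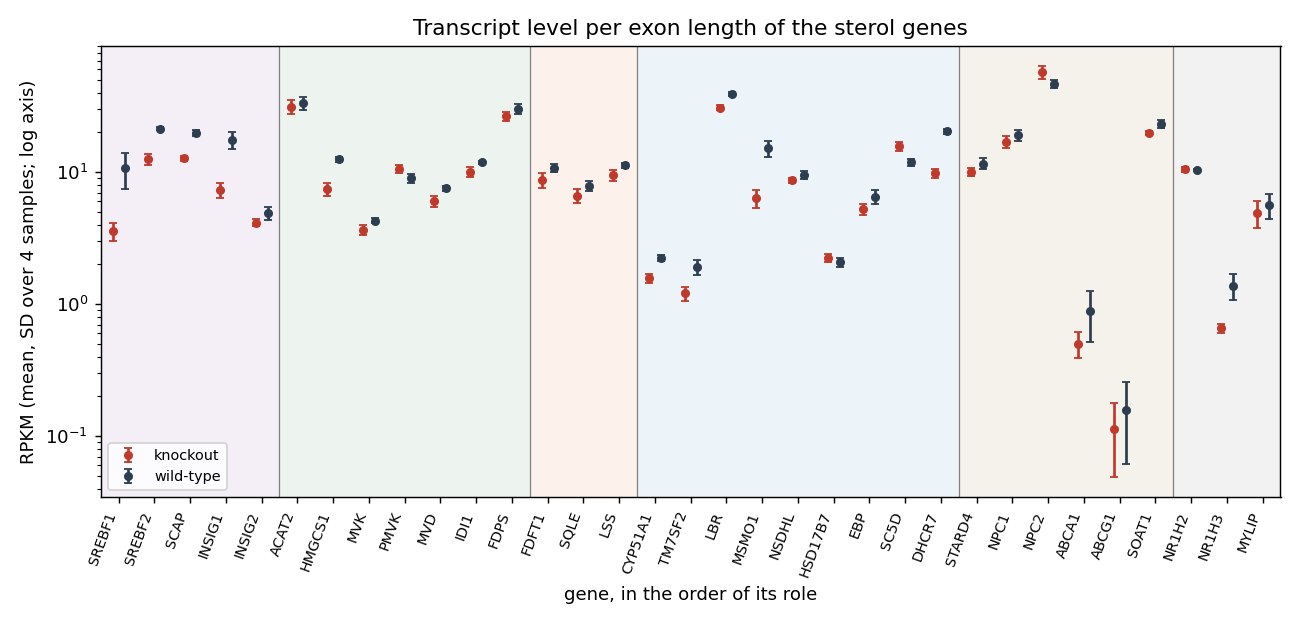
Level per exon length (y axis, RPKM on a log scale, mean and SD of 4 samples) of the 33 genes in order of role, knockout left of wild-type for each. NPC2 stands highest, at 57.0 RPKM in the knockout and 46.7 in wild-type, and ABCG1 lowest, at 0.113 and 0.159.

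Of the 6 genes of sterol transport, storage and efflux, 1 rose, 2 fell and 3 did not pass. NPC1 and NPC2 together pass cholesterol out of the lysosome, NPC2 as the soluble carrier and NPC1 as the membrane protein. NPC2 had 172, 163, 159 and 132 CPM in the knockout, against 133, 126, 139 and 116 CPM in wild-type (log2 change 0.29, SE 0.08, adjusted p = 0.00629). NPC1 had 164, 162, 160 and 199 CPM in the knockout, against 186, 191, 176 and 220 CPM in wild-type. The groups of both genes overlapped, and replicate 5 was the lowest of each group for NPC2 and the highest of each for NPC1. The log2 change of NPC1 was -0.17 (95% interval -0.35 to -0.0031, adjusted p = 0.0882), and it passed once the replicate number entered as a block (-0.17, adjusted p = 0.000489) and in the absence of knockout replicate 5 (-0.25, adjusted p = 0.00183). The log2 ratio of NPC1 to NPC2 averaged 0.13 ± 0.31 in the knockout and 0.59 ± 0.25 in wild-type (exact permutation p = 0.0857, adjusted 0.103, n = 4 each).

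SOAT1, which esterifies cholesterol for storage, fell to 138 ± 4.68 CPM in the knockout, against 164 ± 11.3 CPM in wild-type, with separate groups (log2 change -0.24, adjusted p = 0.000468). STARD4, a soluble sterol carrier, had a log2 change of -0.20 (adjusted p = 0.0171) with overlapping groups. STARD4 missed the threshold when knockout replicate 1 (adjusted p = 0.0584) or wild-type replicate 2 (0.0610) was left out, with library totals (0.149) or upper-quartile scaling (0.120), and relative to its neighbours (0.0680).

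The efflux transporter ABCA1 had 5.10, 6.53, 4.20 and 6.94 CPM in the knockout, against 9.15, 12.1, 4.63 and 14.3 CPM in wild-type. Wild-type replicate 3 lay within the knockout range, and the groups overlapped through that sample alone. The log2 change was -0.82 (95% interval -1.71 to 0.08, adjusted p = 0.119), and it passed once the replicate number entered as a block (-0.77, adjusted p = 1.65e-05) and without wild-type replicate 3 (-1.06, adjusted p = 0.00284). ABCG1, its partner in efflux, had 0.510, 1.18, 0.272 and 0.813 CPM in the knockout, against 0.779, 1.20, 0.254 and 1.66 CPM in wild-type. Its samples spread widely within each group and its change was not resolved (log2 change -0.48, 95% interval -1.88 to 0.92, adjusted p = 0.557). The ratio of ABCA1 to ABCG1 did not differ detectably (log2 difference -0.34, exact permutation p = 0.343, n = 4 each).

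Of the LXR genes, NR1H3 fell and NR1H2 did not change detectably. NR1H3 (ENSG00000025434, chromosome 11, 47248300 to 47269032, plus strand) had 3.16, 3.07, 2.99 and 2.66 CPM in the knockout, against 6.63, 7.91, 4.61 and 5.93 CPM in wild-type. The groups were separate, with a log2 change of -1.07 (SE 0.14, adjusted p = 2.12e-06), a neighbours' median of -0.46 and a relative change of -0.61 (adjusted p = 0.00123). NR1H2, the widely expressed form, had 42.3, 38.7, 38.2 and 38.9 CPM in the knockout, against 38.2, 39.0, 38.1 and 39.6 CPM in wild-type (log2 change 0.03, 95% interval -0.08 to 0.13, adjusted p = 0.669). The log2 ratio of NR1H3 to NR1H2 averaged -3.73 ± 0.10 in the knockout and -2.65 ± 0.32 in wild-type (exact permutation p = 0.0286, adjusted 0.0857, n = 4 each). That p was again the smallest that 70 splits allow, so the adjusted value cannot decide whether the 2 genes changed unequally. MYLIP, an LXR target that marks lipoprotein receptors for breakdown, had 15.4, 14.4, 10.7 and 19.1 CPM in the knockout, against 18.9, 18.7, 11.5 and 19.0 CPM in wild-type. Its groups overlapped (log2 change -0.19, 95% interval -0.73 to 0.36, adjusted p = 0.552), and it passed once the replicate number entered as a block (-0.19, adjusted p = 0.0222).

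Position on the chromosome went with some of these changes. For 8 of the 33 genes (SCAP, INSIG1, HMGCS1, MVD, TM7SF2, MSMO1, DHCR7 and NR1H3) the median log2 change of the neighbouring genes was below -0.2. That is 24.2% of the 33 genes, beside 10.8% of the 19604 tested genes that have such a median. Relative to their neighbours 19 genes fell and 2 rose, beside 22.2% of all tested genes lower, 22.3% higher and 44.5% called. SCAP, PMVK, MVD, SQLE and STARD4 no longer passed, ACAT2 did, and the part that chromosomal position has in the other changes was not tested. Some exons are shared with genes on the opposite strand, 6.92% of the exon bases of SREBF1 with RAI1, 9.23% of those of ACAT2 with TCP1 and 4.17% of those of NR1H3 with ACP2. ACP2 averaged 29.3 CPM in the knockout and 35.6 CPM in wild-type, well above NR1H3, and itself fell (log2 change -0.28, adjusted p = 0.000318). Whether strand was used in counting is not known, so such reads could belong to either gene.

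Other ways of calling gave like counts, each read against its own background. Fits that took the replicate number as a block called 25 genes lower and 3 higher, beside 26.1%, 26.6% and 52.7% of all tested genes lower, higher and called. DESeq2 called 22 lower and 3 higher, beside 17.1%, 17.2% and 34.3%. Library totals called 17 lower and 3 higher, beside 18.8%, 29.7% and 48.5%, and upper-quartile scaling 18 lower and 3 higher, beside 18.6%, 30.3% and 48.9%. A lenient filter left 22 lower and 3 higher, beside 18.5%, 19.5% and 38%. A minimum mean log2 CPM of 1 left 20 lower and 3 higher of the 32 genes above it, beside 28.2%, 28.1% and 56.3%.

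The spread within groups had a shape of its own. SREBF1, NPC1, ABCA1, ABCG1, NR1H2 and MYLIP, 18.2% of the 33 genes, were lowest in replicate 3 of the knockout and also in replicate 3 of wild-type, beside 7.05% of all tested genes. For NR1H2 the margins were slight, 38.186 against 38.677 CPM for the next knockout sample and 38.126 against 38.2 CPM for the next wild-type sample. Replicate 5 was highest in both groups for SREBF1, NPC1, ABCA1 and MYLIP. That is 12.1% of the 33 genes, close to the 10.9% of all tested genes, so it does not set these genes apart. Most enzymes ran differently: in the knockout, replicate 5 was lowest for 23 of the 33 genes, and in both groups at once for 12 of them, among them SREBF2, HMGCS1, FDFT1, SQLE, SC5D and DHCR7. Over all tested genes, replicate 5 was lowest in the knockout for 29.9% and in both groups for 12.4%. The same replicate number was lowest in both groups for 57.6% of the 33 genes and for 35.6% of all tested genes. Within replicate numbers, the knockout was below wild-type in 4 of 4 numbers for 23 genes and above it in 4 of 4 for PMVK, SC5D and NPC2, beside 30.0% and 30.1% of all tested genes. For SREBF1 the ratio of knockout to wild-type was 0.303, 0.288, 0.502 and 0.328 in replicates 1, 2, 3 and 5, and for DHCR7 it was 0.480, 0.523, 0.486 and 0.440. For each of the 6 gene pairs given above, the log2 ratio kept 1 direction, lower in the knockout, within 4 of 4 replicate numbers. Which gene of a pair stands first sets that direction, so its being shared by the pairs carries no meaning. The share of other gene pairs that keep 1 direction was not computed. The differences of the log2 ratios within numbers 1, 2, 3 and 5 were -0.55, -0.61, -0.34 and -0.34 for NPC1 to NPC2. For SREBF1 to SREBF2 they were -0.98, -1.09, -0.31 and -0.67. Other pairs came close to no difference in 1 number: TM7SF2 to LBR with -0.0098 in number 3, and ABCA1 to ABCG1 with -0.0231 in number 5. The permutation tests of these ratios did not use the pairing. The labels do not say what the numbers stand for.

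**Figure D4:**
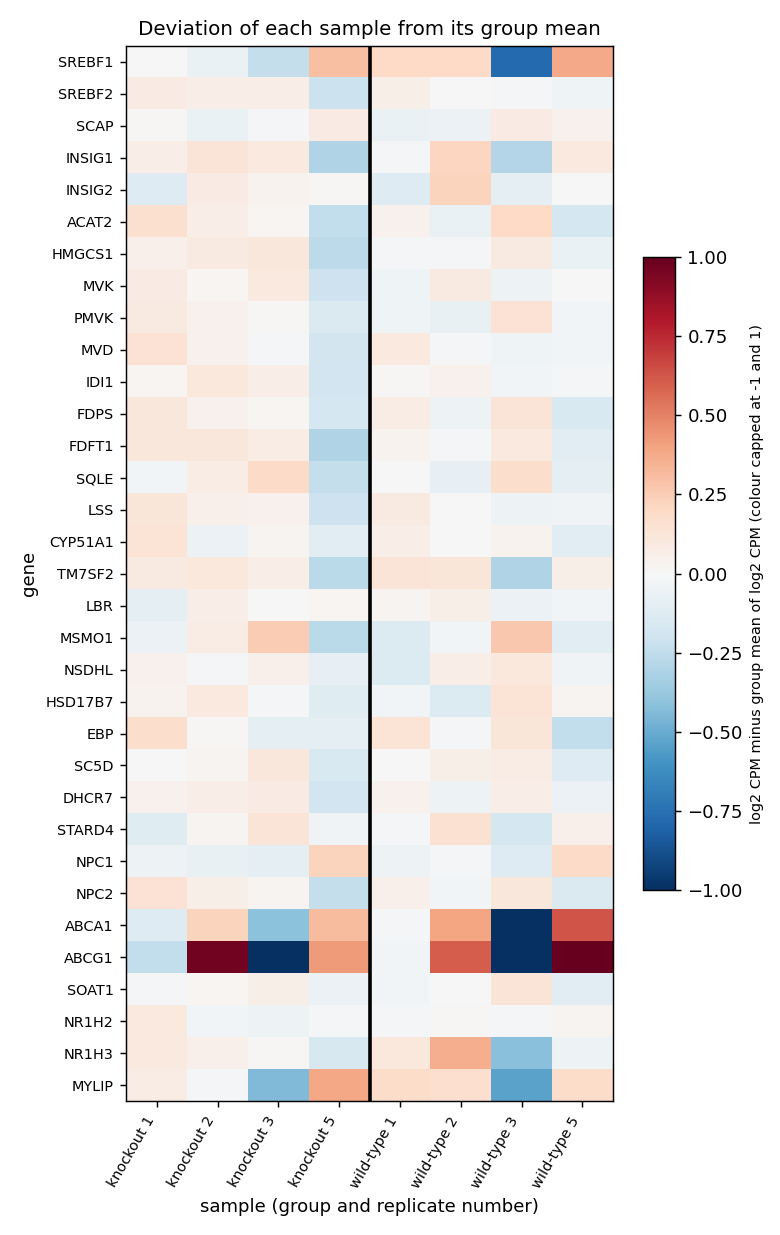
Log2 CPM of each sample minus the mean of its own group (colour, capped at -1 and 1) for the 33 genes (rows) in the 4 knockout and 4 wild-type samples (columns). SREBF1, ABCA1, ABCG1 and MYLIP are low in replicate 3 of both groups, and most enzymes are low in knockout replicate 5.

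Of 16 genes of SREBP processing and sterol sensing, which act around the pathway, 8 fell, 1 rose and 7 did not pass, with a median log2 change of -0.09. In the main fit, the shares of all tested genes to read these and the next lists against are 23.6% lower, 23.9% higher and 47.6% called. With library totals or upper-quartile scaling 6 fell and 3 rose. Those scalings called 18.8% and 18.6% of all tested genes lower, and 29.7% and 30.3% higher. MBTPS1, the first protease to cut SREBP, fell to 113 ± 3.04 CPM in the knockout, against 149 ± 8.48 CPM in wild-type (adjusted p = 5.46e-07). Its log2 change was -0.40, the neighbours' median was -0.24, and the change relative to them was -0.16 (adjusted p = 0.0114). PAQR3, a Golgi anchor of the SCAP and SREBP complex, had a log2 change of -0.81 (adjusted p = 3.02e-09), but only 0.01 when set against its neighbours (adjusted p = 0.900).

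Of 13 genes of the isoprenoid branch, which uses the products of FDPS, 5 fell and 8 did not pass. The share called in either direction was below the 47.6% of all tested genes, and the share that fell was above their 23.6%. With upper-quartile scaling 4 fell and 2 rose, beside 18.6% lower and 30.3% higher. COQ2, of coenzyme Q synthesis, and RCE1, a protease of prenylated proteins, fell by 0.82 and 0.63 on the log2 scale, but their neighbours had medians of -0.75 and -0.47, and relative to those neither passed (adjusted p = 0.336 and 0.0542). NUS1, a subunit of the enzyme that makes dolichol, had a log2 change of -0.26, and of -0.31 relative to its neighbours (adjusted p = 2.27e-05).

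Of 30 genes of sterol transfer and oxysterol metabolism 26 were tested, and 9 rose, 8 fell and 9 did not pass, so that this list leaned to neither side. With library totals 12 rose and 7 fell, beside 29.7% of all tested genes higher and 18.8% lower in that fit. SCARB1, the receptor for high-density lipoprotein, fell to 51.5 ± 1.09 CPM in the knockout, against 87.2 ± 6.17 CPM in wild-type (log2 change -0.76, adjusted p = 1.03e-10). Among the oxysterol-binding protein family, OSBPL7 rose to 18.3 ± 1.38 CPM in the knockout, against 9.41 ± 1.03 CPM in wild-type, while OSBPL10 fell to 63.5 ± 1.004 CPM in the knockout, against 90.6 ± 3.56 CPM in wild-type. CH25H, which makes an oxysterol that restrains SREBP cleavage, was named after its values were seen: it had 37, 35, 32 and 40 counts in the knockout, against 8, 3, 3 and 5 counts in wild-type. It rose with separate groups but stayed at a low level (log2 change 2.74, adjusted p = 4.40e-07).

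Of 4 further LXR targets, 2 fell and 2 did not pass. By DESeq2 or with the replicate number as a block 3 fell, and with library totals 1 fell. Those fits called 17.1%, 26.1% and 18.8% of all tested genes lower. PLTP, a phospholipid transfer protein, fell to 0.342 ± 0.120 CPM in the knockout, against 0.787 ± 0.142 CPM in wild-type (adjusted p = 0.00106). LPCAT3, a phospholipid acyltransferase, fell to 26.7 ± 1.80 CPM in the knockout, against 35.6 ± 6.13 CPM in wild-type (adjusted p = 0.0164), with overlapping groups.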

How the data were processed

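Whole-number read counts per Ensembl gene were deposited by the authors for 8 samples. Their making involved hg38, FastQC 0.11.7, STAR 2.6.0c, Subread 1.6.2 with featureCounts, and DESeq2 1.23.10, per the submitters' processing notes. Strand setting, annotation release and the handling of reads with several matches are not given in the sources used here. The libraries were stranded, per the labels' protocols. The authors' variance-stabilized table was not used. Groups and replicate numbers 1, 2, 3 and 5 came from sample titles, and columns were matched by title.

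Genes were tested in R 4.3.3 with edgeR 4.0.16 (filterByExpr, trimmed-mean scaling, robust quasi-likelihood fit, group as the single term), with Benjamini-Hochberg adjustment over 19877 genes. A standard error is the log2 change divided by the square root of F. CPM used trimmed-mean library sizes, in which 1 count was 0.0198 to 0.0250 CPM, and RPKM used the union of exons in GENCODE 29 (GRCh38, the build of the files). Ratios of 2 genes were compared with exact two-sided permutation tests over samples, after adding 0.5 to each count. The change relative to neighbours used the median log2 change of up to 25 tested genes on each side as an offset. That median came from the same samples and was taken as fixed. The relative p-values therefore leave out its error and the spread among the neighbours. DESeq2 1.42.0 was an alternative. The main fit and the fit relative to neighbours were also run on simulated counts, and the other fits were not. The simulated samples were drawn independently, without the pairing by replicate number.

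The members, roles and wider lists were chosen with earlier results of these data known. Full values are given for the 2 largest changes of each role and for paralogs or genes of the same step, and for SCAP and SC5D, chosen after their values were seen; of each wider list up to 3 members with the smallest adjusted p are named. A few genes that this rule selects are not reported here. Same-numbered samples deviated together from their group means, with correlations of 0.369, 0.148, 0.146 and 0.373 (13344 genes). Pairs with different numbers gave -0.302 to 0.0587. The replicate numbers were therefore taken to pair the samples, from shared labels and these correlations. The main fit and the permutation tests did not use this pairing. The fit with the replicate number as a block did. No replicates of a group agreed within sampling noise (chi-square per degree of freedom 3.41 to 18.4).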

Additional observations from a re-analysis of the deposited data

Results flagged for a closer look

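In 7 of 66 sets of 4 samples, 1 sample lay far from the other 3, measured by its gap over the range of the group. Chance gives about 1 in 20 when sets are independent, but these 66 come from the same 8 samples. The share over all tested genes was not computed, so the count is not shown to be particular to the 33 genes. Knockout replicate 5 was the far sample in 6 of the 7 sets. It was low for SREBF2 (81.7 CPM, the others 99.1 to 99.99), INSIG1 (21.7 CPM, the others 28.0 to 29.2), FDFT1 (36.8 CPM, the others 47.8 to 49.1), TM7SF2 (3.39 CPM, the others 4.28 to 4.40) and DHCR7 (35.8 CPM, the others 41.9 to 43.1). It was high for NPC1 (199 CPM, the others 160 to 164). Wild-type replicate 3 was low for MYLIP (11.5 CPM, the others 18.7 to 19.0). Without knockout replicate 5, 21 of the 33 genes fell and 3 rose, beside 22.4% and 23.1% of all tested genes. Without wild-type replicate 3 the counts were also 21 and 3, beside 22.9% and 24.4%.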

How the results depend on the processing

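The count of 22 lower genes ranged from 17 with library totals to 25 with the replicate number as a block, and from 19 to 22 when 1 sample was left out. The count of 3 higher genes ranged from 2 to 3 over all 15 alternatives, and was 2 relative to neighbours and without knockout replicate 1, knockout replicate 2 or wild-type replicate 2. The block added NPC1, ABCA1 and MYLIP (log2 changes -0.17, -0.77 and -0.19) and changed no other call among the 33 genes. DESeq2 and a lenient filter (at least 10 counts in all) changed no call. Library totals ended 5 calls and upper-quartile scaling 4, all of genes with log2 changes between -0.24 and -0.18; these scalings moved the median of all genes by up to 0.07. A minimum mean log2 CPM of 1 ended the calls of FDPS (adjusted p = 0.0646) and STARD4 (0.0571). Relative to neighbours, 5 calls were lost (SCAP, PMVK, MVD, SQLE and STARD4) and ACAT2 passed. No direction of a called gene reversed under these alternatives. The cause of the changed calls was not tested. ABCG1 had as few as 12 counts in a sample, and its adjusted p was 0.557, or 0.0833 with the block.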
